A study of Yarrowia lipolytica with 3 samples.

Results

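The genes described here are the 35 of Yarrowia lipolytica whose transcripts ran against those of MHY1, lowest in a strain overexpressing it, highest in a strain lacking it and between these levels in the wild type. They were chosen from the same values that are reported below. A gene entered when it reached 1 RPKM in any library, when its deletion to wild type ratio was at least 2-fold and when its overexpression to wild type ratio was at most the inverse of that, both as log2 ratios after adding 1 RPKM. RPKM is the read number scaled to gene length and to the size of the library. Of 6448 genes listed, 6035 reached 1 RPKM and 37 met both conditions. MLS1 (YALI0D19140g, malate synthase of the glyoxylate cycle) and POX5 (YALI0C23859g, an acyl-CoA oxidase of peroxisomal fat breakdown) were among the 37 and were left out by the rule, which leaves 35.

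Y. lipolytica is an oil-storing yeast that switches between round cells and hyphae. The product of MHY1 is a zinc-finger protein of the C2H2 class that this yeast needs for the hyphal switch, and it is related to the stress regulators Msn2 and Msn4 of Saccharomyces cerevisiae. A factor of this kind can raise the transcripts of some genes and, directly or through others, lower those of other genes. Binding of Mhy1 to DNA was not measured in this study.

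The study has 3 libraries of total RNA, 1 for each strain: an MHY1-overexpressing mutant, an mhy1Δ mutant and the wild type. All 3 derive from strain PO1a and were grown in YNDC7 liquid medium with added uracil at 30 °C until the OD600 was 0.8. The promoter and vector of the overexpression strain, and the number of clones behind either mutant, are stated in none of the sources used here. With 1 library a strain there is no replicate check of any difference, no test was made, and the 95% intervals given with ratios cover counting error only. The library totals recovered from the steps of the values lay between 47622181 and 75306802 reads. MHY1 itself (YALI0B21582g) had 1159 RPKM in the overexpression strain and was listed at 0 in the deletion strain, against 467 RPKM in wild type, so the libraries followed their labels.

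The files give identifiers without names, and the reference table at hand matched none of them (0 of 6448). No function is therefore given for any of the 35 genes, and they are set in order by how they differed. In an identifier the letter after YALI0 is the chromosome, and the digits that follow increase along it.

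As a group the 35 genes changed place in the transcriptome from strain to strain, which follows from the rule and is given as a description. Their median level was 17.7 RPKM in the overexpression strain and 219 RPKM in the deletion strain, against 68.7 RPKM in wild type. Over all 6035 genes compared the median was 38.0 RPKM in the overexpression strain and 31.6 RPKM in the deletion strain, against 34.1 RPKM in wild type. The 35 genes held 0.141% of the recovered reads in the overexpression library and 1.56% in the deletion library, against 0.479% in wild type. Without YALI0D09889g, the most abundant of them in the deletion strain, the share was 0.121% with extra MHY1 and 1.29% without MHY1, against 0.418% in wild type. In the overexpression library 8 of the 35 lay above the median of all genes, in the deletion library 34 did, and in wild type 29 did.

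**Figure D1:**
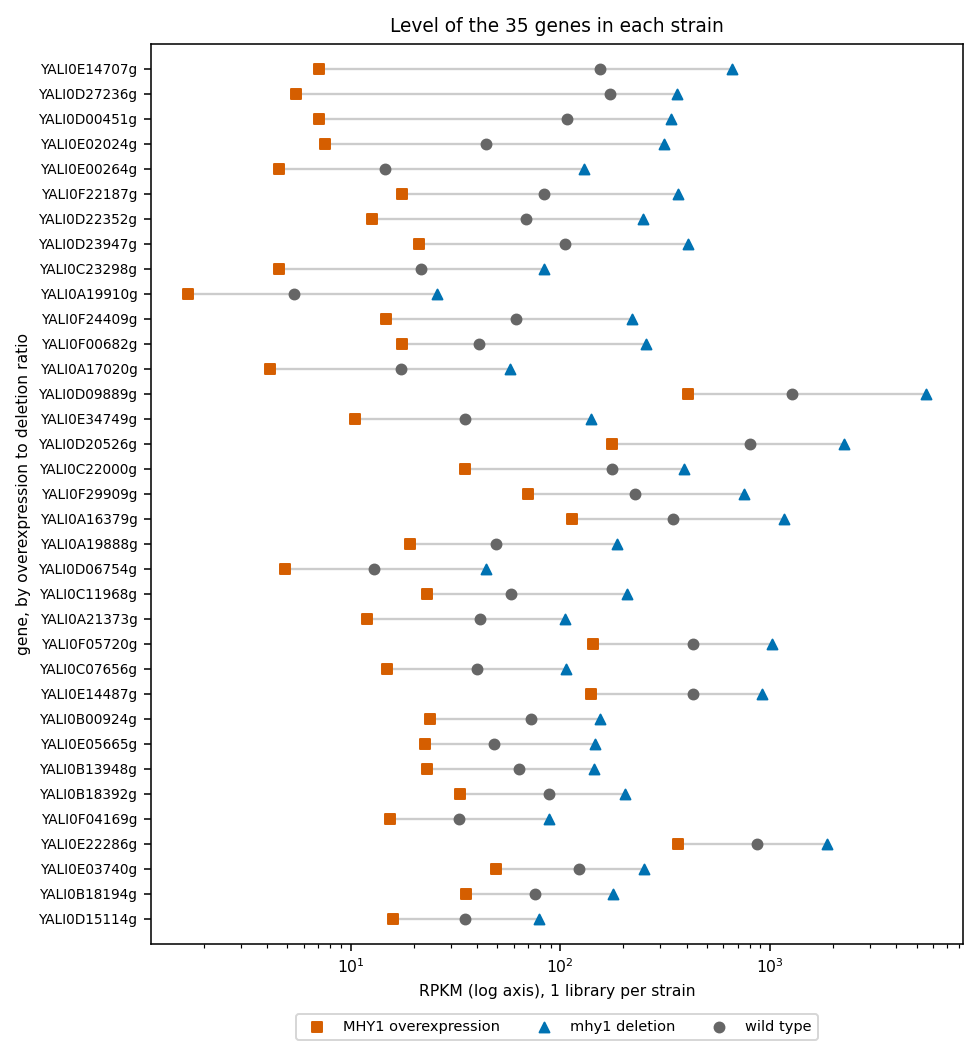
RPKM (log axis) of each of the 35 genes in the MHY1 overexpression strain (squares), the mhy1 deletion strain (triangles) and wild type (circles), 1 library each, sorted by the overexpression to deletion ratio. Every row runs in the order the rule demands, and the gap between squares and triangles reaches 92.6-fold for YALI0E14707g at the top and is 4.997-fold for YALI0D15114g at the bottom.

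Over all genes compared, the deletion strain had 100 (1.66%) higher than wild type by 2-fold or more, and the overexpression strain had 149 (2.47%) lower than wild type by 2-fold or more. The 37 that met both conditions were 0.613% of the genes compared, 37.0% of the first set and 24.8% of the second. Both ratios share the wild-type library. Among the 35, the RPKM ratio of the deletion strain to wild type ran from 2.05-fold to 8.90-fold higher, with a median of 3.29. Relative to wild type, levels in the overexpression strain were between 2.11-fold and 31.6-fold lower, with a median of 3.11. These ranges follow from the rule and are a description of it. The counting interval lay beyond 2-fold on both sides for 34 of the 35, the exception being YALI0E03740g on the deletion side, at 2.05-fold (1.91 to 2.19).

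**Figure D2:**
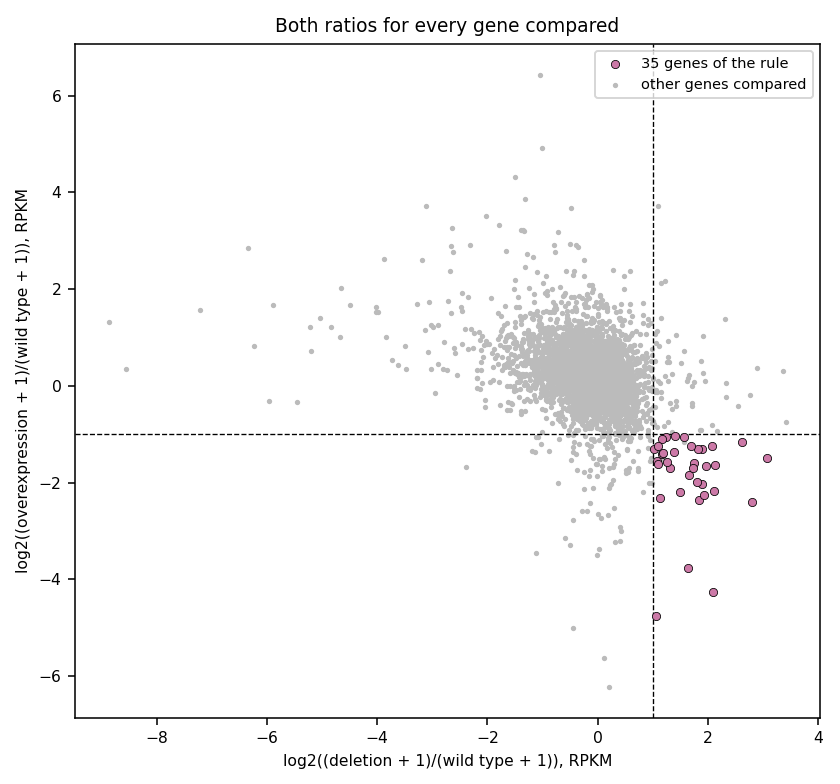
Log2 ratio of the deletion strain to wild type (horizontal) against that of the overexpression strain to wild type (vertical), pseudocount 1 RPKM, for the 6035 genes compared, with the 35 genes as large points and dashed lines at the 2-fold limits. The 2 small points in the same corner are MLS1 and POX5, and the 35 genes reach 3.07 to the right and −4.75 downward.

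At 4-fold on the log2 scale, 3 genes met the rule on both sides. YALI0E14707g had 7.11 RPKM in the overexpression strain and 658 RPKM in the deletion strain, against 154 RPKM in wild type. It was thus 21.7-fold lower with extra MHY1 (interval 19.9 to 23.6) and 4.28-fold higher without it (4.18 to 4.38), and its 92.6-fold span between the engineered strains was the widest of the 35. YALI0E02024g was at 7.58 RPKM in the overexpression strain and 312 RPKM in the deletion strain, against 44.1 RPKM in wild type. Here the deletion side was the larger by RPKM ratio, 7.08-fold higher (6.91 to 7.26), beside 5.81-fold lower in the overexpression strain (5.53 to 6.12). The third, YALI0F22187g, had 17.7 and 365 RPKM in the overexpression and deletion strains, against 83.5 RPKM in wild type, with sides of 4.72-fold and 4.37-fold that hardly differed in size.

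In 4 genes the overexpression side exceeded the deletion side by 1 or more on the log2 scale. YALI0E14707g, above, was the first of these. YALI0D27236g had 5.47 RPKM in the overexpression strain (231 reads) and 362 RPKM in the deletion strain, against 173 RPKM in wild type. At 31.6-fold lower with extra MHY1 (27.7 to 36.2) it had the largest overexpression ratio of the 35, while its deletion ratio of 2.09-fold (2.02 to 2.17) was close to the limit. YALI0D00451g was similar in kind, with 7.07 RPKM in the overexpression strain and 337 RPKM in the deletion strain, against 108 RPKM in wild type, or 15.3-fold lower and 3.12-fold higher. YALI0C22000g had 34.95 and 389 RPKM in the overexpression and deletion strains, against 177 RPKM in wild type, which makes 5.08-fold lower and 2.19-fold higher.

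The reverse imbalance was seen in 2 genes. YALI0E00264g had 4.58 RPKM in the overexpression strain and 130 RPKM in the deletion strain, against 14.6 RPKM in wild type. Its 8.90-fold higher level without MHY1 (8.36 to 9.48) was the largest deletion ratio of the 35, beside 3.19-fold lower with extra MHY1 (2.87 to 3.54). YALI0F00682g was at 17.6 and 255 RPKM in the overexpression and deletion strains, against 40.8 RPKM in wild type, so 2.31-fold lower and 6.25-fold higher. The remaining 29 genes had sides within 1 of each other on the log2 scale. Over all 35 the deletion side was the larger in 16 and the overexpression side in 19.

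**Figure D3:**
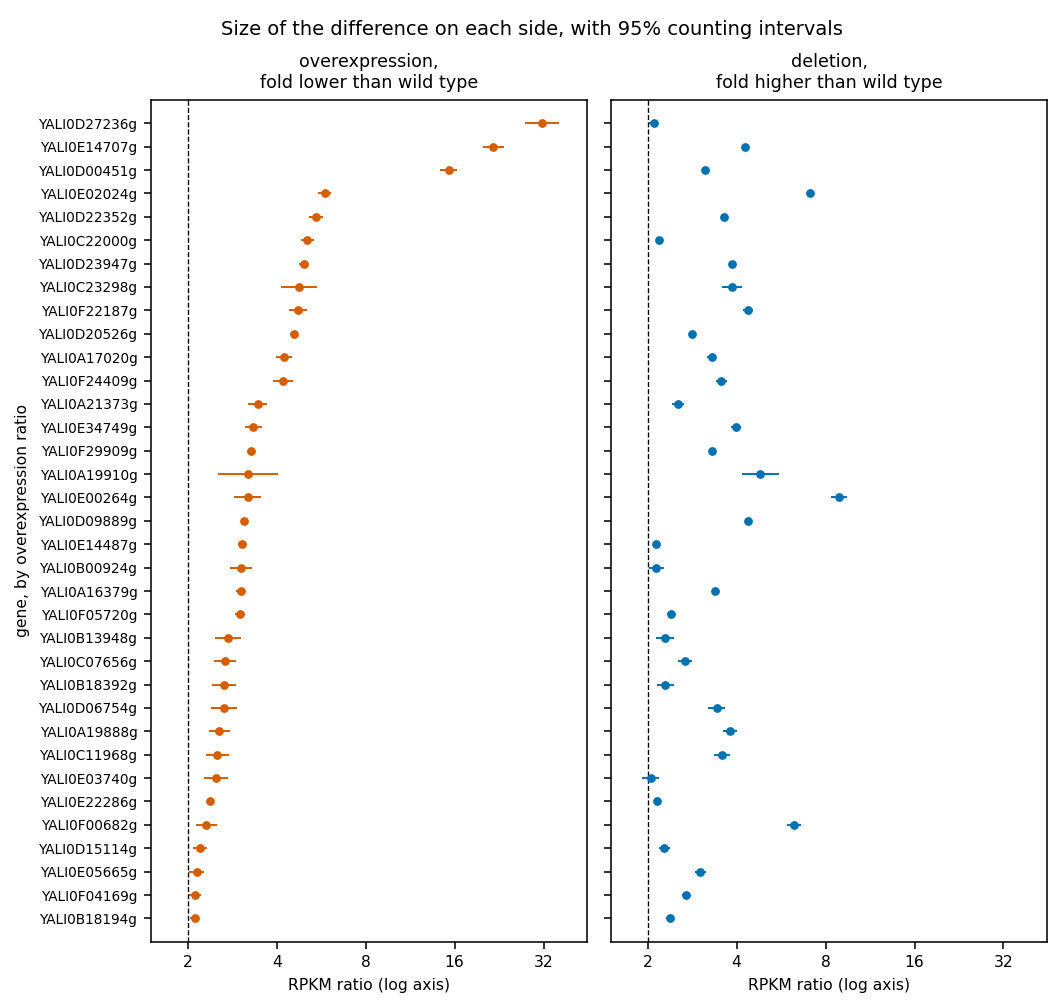
RPKM ratio (log axis) of each of the 35 genes, as the fold by which the overexpression strain was lower than wild type (left) and the fold by which the deletion strain was higher than wild type (right), with 95% counting intervals as bars and a dashed line at 2-fold. Genes are sorted by the left panel, where YALI0D27236g, YALI0E14707g and YALI0D00451g stand apart at 15.3-fold or more, while the right panel does not follow that order.

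The most abundant genes of the set differed by 2-fold to 5-fold on each side. YALI0D09889g had 408 RPKM in the overexpression strain and 5561 RPKM in the deletion strain, against 1269 RPKM in wild type. By level it ranked 423 among the 6035 genes in the overexpression library and 7 in the deletion library, against 181 in wild type; without MHY1 only 6 genes had a higher level. It was 3.11-fold lower (3.05 to 3.17) and 4.38-fold higher (4.33 to 4.44) than in wild type in these strains. YALI0D20526g had 176 and 2255 RPKM in the overexpression and deletion strains, against 802 RPKM in wild type. YALI0E22286g, at 364 and 1861 RPKM against 867 RPKM in wild type, was similarly abundant in wild type and had smaller ratios, 2.38-fold lower and 2.15-fold higher.

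Another 4 genes were above 200 RPKM in wild type. YALI0A16379g had 114 RPKM in the overexpression strain and 1161 RPKM in the deletion strain, against 345 RPKM in wild type. YALI0F05720g and YALI0E14487g had nearly the same levels as each other: 143 and 140 RPKM in the overexpression strain and 1025 and 914 RPKM in the deletion strain, against 428 and 428 RPKM in wild type. YALI0F29909g had 69.8 and 755 RPKM in the overexpression and deletion strains, against 228 RPKM in wild type, with nearly equal sides of 3.27-fold and 3.31-fold. Levels thus differed about 10-fold between the engineered strains in YALI0A16379g (10.2) and YALI0F29909g (10.8) and less in the pair YALI0F05720g (7.19) and YALI0E14487g (6.53).

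Several genes of middling level had differences of 3-fold or more on both sides. YALI0D22352g had 12.7 and 249 RPKM in the overexpression and deletion strains, against 68.7 RPKM in wild type. YALI0D23947g had 21.3 and 405 RPKM in them, against 106 RPKM in wild type. YALI0F24409g had 14.7 RPKM with extra MHY1 and 219 RPKM without it, against 61.8 RPKM in wild type. Their spans between the engineered strains were 19.7-fold, 19.0-fold and 14.9-fold. YALI0C23298g (4.58 and 83.8 RPKM, against 21.7 RPKM in wild type) spanned 18.3-fold. YALI0E34749g (10.5 and 140 RPKM, against 35.04 RPKM in wild type) spanned 13.3-fold. YALI0A17020g had 4.11 and 57.4 RPKM in the overexpression and deletion strains, against 17.4 RPKM in wild type. At 4287 bp it had the longest recovered length of the 35 and still had 1327 reads in the overexpression library.

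A further 6 genes reached 3-fold on 1 side and stayed below it on the other. YALI0D06754g had 4.89 and 44.4 RPKM in the overexpression and deletion strains, against 13.0 RPKM in wild type. YALI0C11968g had 23.1 and 207 RPKM in the same strains, against 58.1 RPKM in wild type. With YALI0E05665g (22.6 and 146 RPKM, against 48.5 RPKM in wild type) these had the smaller difference in the overexpression strain. The deletion strain had the smaller one in YALI0A21373g (11.99 and 105 RPKM, against 41.4 RPKM in wild type) and in YALI0B00924g (24.0 and 155 RPKM, against 72.6 RPKM in wild type). YALI0A19888g, at 19.2 and 187 RPKM against 49.2 RPKM in wild type, had its smaller difference in the overexpression strain as well, at 2.56-fold lower and 3.80-fold higher.

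YALI0A19888g and YALI0A19910g were the only members that stand next to each other in the identifier list. YALI0A19910g was the weakest of the 35, at 1.68 RPKM in the overexpression strain (109 reads) and 25.7 RPKM in the deletion strain, against 5.35 RPKM in wild type (220 reads). Its RPKM ratios of 3.19-fold lower (2.53 to 4.05) and 4.81-fold higher (4.17 to 5.57) had the widest intervals of the 35 relative to the ratio itself, and the added 1 RPKM shrinks its log2 ratios to −1.25 in overexpression and 2.07 in deletion. These 2 genes differed several-fold in level. Both RPKM ratios were smaller in YALI0A19888g, at 2.56-fold lower and 3.80-fold higher. The next closest members were YALI0E14487g and YALI0E14707g, 8 steps apart in the list, and YALI0B18194g and YALI0B18392g, 10 steps apart.

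The mildest genes were the 8 below 3-fold on both sides. YALI0E22286g, above, was among them. YALI0B13948g had 23.2 and 145 RPKM in the overexpression and deletion strains, against 63.3 RPKM in wild type, and YALI0B18392g had 33.4 and 204 RPKM, against 88.7 RPKM in wild type. YALI0C07656g had 15.0 RPKM with extra MHY1 and 107 RPKM without it, against 40.03 RPKM in wild type, and both sides were 2.67-fold. YALI0D15114g spanned least of all between the engineered strains, with 15.9 and 79.5 RPKM in overexpression and deletion, against 35.0 RPKM in wild type. All 8 lay between 4.997-fold and 7.14-fold apart in the engineered strains.

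The last 3 of these mild genes were the ones nearest the limit from inside. YALI0E03740g had 49.2 and 250 RPKM in the overexpression and deletion strains, against 122 RPKM in wild type, with log2 ratios of −1.30 in overexpression and 1.03 in deletion. YALI0F04169g (15.5 and 88.4 RPKM, against 32.8 RPKM in wild type) stood at −1.04 in overexpression and 1.40 in deletion. YALI0B18194g (35.7 and 179 RPKM, against 75.4 RPKM in wild type) stood at −1.06 in overexpression and 1.23 in deletion. Just outside were YALI0C05621g (261 and 2090 RPKM, against 1054 RPKM in wild type), with −2.01 in overexpression and 0.99 in deletion, and YALI0F01320g (6.05 and 37.9 RPKM, against 18.8 RPKM in wild type), with −1.49 and 0.97 in these strains. YALI0D09933g (101 and 505 RPKM, against 197 RPKM in wild type) missed on the overexpression side, at −0.96 with 1.35 in the deletion strain, and stands 2 steps from the member YALI0D09889g. Each of these 3 missed the limit on 1 side only.

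Set directly against each other, the engineered strains do not involve the wild-type library, although their ratio for these genes is fixed to at least about 4-fold by the rule. In the overexpression strain 286 of the 6035 genes (4.74%) were at least 2-fold lower than in the deletion strain, and 93 (1.54%) at least 4-fold lower on the log2 scale. These 93 include all 35 genes. By RPKM they were a median of 10.8-fold lower in the overexpression strain, 19 were at least 10-fold lower and 6 at least 20-fold lower. Those 6 were YALI0E14707g, YALI0D27236g (66.1-fold), YALI0D00451g (47.6-fold), YALI0E02024g (41.2-fold), YALI0E00264g (28.4-fold) and YALI0F22187g (20.6-fold).

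The rule used neither place nor length, and these were compared with the other genes as a description. The 35 genes were spread over all 6 chromosomes, with 5 on A, 4 on B, 4 on C, 8 on D, 8 on E and 6 on F. As a share of the genes compared on each chromosome this was from 0.445% on B to 0.870% on A. Of the 35 genes, 7 lay within 50 listed identifiers of a chromosome's first or last one, where 9.26% of all genes compared lie. Within 25 identifiers the shares were 5 genes (14.3%) and 4.59%. These were YALI0A21373g, YALI0D00451g, YALI0D27236g, YALI0E00264g and YALI0E34749g, and YALI0B00924g and YALI0F00682g lay within 50. The distances of 50 and 25 were picked after the values were seen. Of the 6 genes with unequal sides 4 were among these 7, and of the 29 with similar sides 3 were. The sides were grouped from the same values, and no such split was made for other genes. A link between place and unequal sides was not tested.

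The median recovered length of the 35 genes was 840 bp, against 1155 bp over all genes compared, and 14 of them were longer than that median. The range ran from 201 bp for YALI0E03740g to 4287 bp. Some recovered lengths may be fractions of the true one, so for nearly all single genes the length and the recovered reads are lower limits. RPKM ratios of a gene between strains do not depend on its length.

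Of the 68 genes next to the 35 in the identifier list, 61 reached 1 RPKM and were compared, and 56 of these were within 2-fold of wild type in both strains (over all genes compared the share was 86.7%). Their median log2 ratio was 0.09 in the overexpression strain and 0.05 in the deletion strain, where all genes had medians of 0.16 and −0.03. None (0) was at least 2-fold higher in the deletion strain, where 1.66% of all genes were. At least 2-fold lower in the overexpression strain were 4 of 61 (6.56%), against 2.47% of all genes. In the order of the 35 genes, lower in the overexpression and higher in the deletion strain than in wild type by any amount, were 17 of the 61 (27.9%), against 18.7% of all genes compared. With 2 identifiers on either side that share was 24.8%. Members were left out of the neighbour counts. The shares over all genes compared still include the 35 genes, which pass both limits by the rule. By the rule only MLS1 or POX5 could then have met both conditions at 2-fold, and neither was among these neighbours.

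Those 4 neighbours were within 2-fold of wild type in the deletion strain, with log2 ratios from −0.14 to 0.54. YALI0C07634g, next to YALI0C07656g, had 77.8 RPKM in the overexpression strain and 190 RPKM in the deletion strain, against 209 RPKM in wild type. YALI0E22264g, next to YALI0E22286g, had 62.2 and 229 RPKM in these strains, against 157 RPKM in wild type. YALI0D00429g, beside YALI0D00451g, had 464 and 1172 RPKM, against 1024 RPKM in wild type, and YALI0F24431g, beside YALI0F24409g, had 458 and 1110 RPKM, against 961 RPKM in wild type. Some other neighbours ran the other way, higher in the overexpression and lower in the deletion strain than in wild type by any amount. The medians over all genes lay in that direction as well, at 0.16 in the overexpression and −0.03 in the deletion strain. These neighbours were not counted, and neither was the share of all genes that ran so. Examples are YALI0E00286g, YALI0E14509g and YALI0E34727g. YALI0D15136g, next to YALI0D15114g, ran this way with 42.1 RPKM in the overexpression strain and 11.9 RPKM in the deletion strain, against 31.0 RPKM in wild type. YALI0E14729g, next to YALI0E14707g, did so too at a low level, with 7.24 and 1.48 RPKM, against 3.56 RPKM in wild type.

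**Figure D4:**
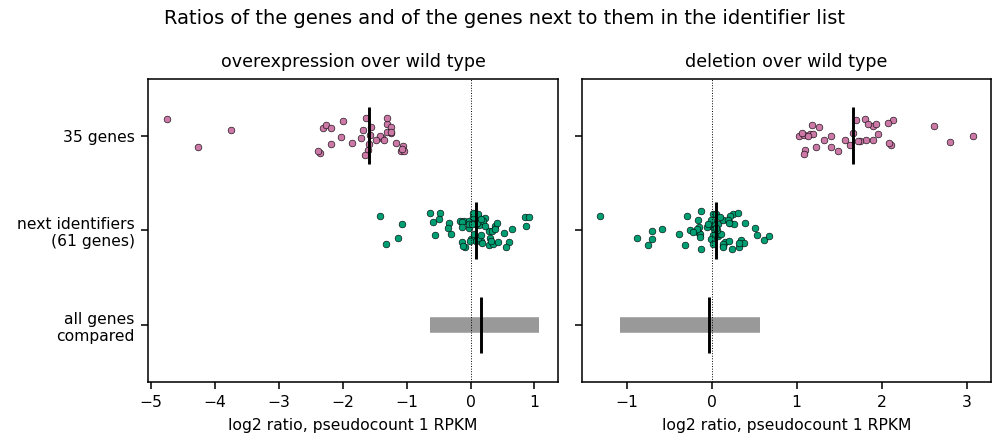
Log2 ratio to wild type (pseudocount 1 RPKM) in the overexpression strain (left) and in the deletion strain (right) for the 35 genes, for the 61 genes compared that stand next to them in the identifier list, and for all 6035 genes compared. Points are single genes, black lines are medians and the grey bar spans the 5th to 95th percentile of all genes; the neighbours centre on 0.09 and 0.05, close to all genes, while the 35 genes lie beyond 1 on both sides by the rule.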

How the data were processed

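The authors deposited 1 table of RPKM per library, per the file headers, with 6448 identifiers each. The tools listed in the submitters' processing notes are Cufflinks 2.2.1 and TopHat2 2.1.1, with no role given, and the build listed is mm10, a mouse genome that cannot hold these identifiers. The yeast build, annotation, strand setting and treatment of reads shared by similar or overlapping genes were not given in the sources used here, so values of such genes are uncertain.

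Low RPKM values lie on whole-read steps, from which relative depths, totals and lengths were recovered, taking lengths to vary in steps of 3 bp. A length was accepted only where all values of the gene came within 0.01 of a whole read. That all 18983 values above 0 did so is therefore no check of the recovery. On simulated data for the deletion comparison (6392 genes), 92.3% of lengths equalled the true one and 99.31% equalled or divided it. For a part of these genes, with enough reads in both libraries, 95.8% of counting intervals held the true fold. The simulated reads had counting error only, and the simulation took the recovered lengths and totals as the true ones. It therefore cannot show that those lengths and totals are right. Intervals are exact conditional binomial ones (95%, Python 3.11.15, scipy 1.17.1). MHY1 in the deletion strain is at 0, which allows 3 reads (0.0587 RPKM).

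Genes at 1 RPKM or more in any library were compared as log2((x + 1)/(y + 1)), which understates ratios of weak genes. Folds are plain RPKM ratios unless the log2 scale is named. The genes and the rule were chosen with earlier results of these data known. Genes named are the 35, MHY1, MLS1, POX5, the genes next to the 35 and the 3 nearest the limit on each side. The identifier of MHY1 comes from general knowledge of its nomenclature. Functional lists and promoter sequences need an annotation of these identifiers and were not analysed here.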

Additional observations from a re-analysis of the deposited data

How the results depend on the processing

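Pseudocounts of 0.1 and 5 RPKM, no filter, a filter at 10 RPKM, median of ratios scaling, upper-quartile scaling and centring on the all-gene median left between 30 and 45 genes meeting both conditions, where 37 were reported, and moved none of the 4 counts over all genes by more than 1.5 times. The median log2 ratio of all genes in the overexpression strain was 0.16 as deposited and 0.00 with median of ratios scaling. All 35 genes met the rule under each of these settings except the pseudocount of 5, where 29 did; YALI0A19910g, YALI0B18194g, YALI0D06754g, YALI0D15114g, YALI0E05665g and YALI0F04169g fell short, since a larger pseudocount shrinks every ratio. Of 350 ratios of the 35 genes under the pseudocounts and scalings, 344 stayed at 2-fold and 0 changed sign. Most of these settings could not lose a member. The smaller pseudocount enlarges ratios, the filters cannot act on genes with at least 25.7 RPKM in the deletion strain, and the scalings moved both ratios away from the limits. Nor could a sign change under the pseudocounts, which keep the order of 2 values. The largest move was 0.66 on the log2 scale with the pseudocount of 5, and 0.16 under the scalings. The thresholds act by construction as well. At 1.5-fold, 92 genes met both conditions, 281 were higher in the deletion strain and 339 lower in the overexpression strain than in wild type, and 531 were lower in the overexpression than the deletion strain. At 4-fold, 3 genes met both conditions, 17 were higher in the deletion strain and 39 lower in the overexpression strain than in wild type, and 93 were lower between the engineered strains. MHY1 had a log2 ratio of 1.31 in the overexpression strain, and 1.15, 1.21 and 1.15 with median of ratios scaling, upper-quartile scaling and centring, settings added for MHY1 after the data were seen. With 2 identifiers on either side the neighbours' median log2 ratio was 0.10 in the overexpression strain and 0.05 in the deletion strain. No paired analysis was possible because each strain had 1 library, and no replicate could be left out. Few reads limit YALI0A19910g most, with 109 in the overexpression library.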
